A study of Mus musculus with 4 samples.

Results

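The genes of the major histocompatibility complex (MHC) and of antigen presentation were compared between the soleus muscle of wildtype and of HSL-null mice. Lipe encodes HSL (hormone-sensitive lipase), which breaks down stored acylglycerols, and soleus is a slow-twitch calf muscle. The members were all probe sets with 1 gene symbol in the platform annotation that starts with H2- or is B2m, Tap1, Tap2, Tapbp, Cd74, Ciita or Cd1d1. This gave 48 probe sets of 35 genes, out of 12422 probe sets other than controls and 8251 genes with a symbol of their own. The wildtype group and the HSL-null group each consist of 1 pool, made of the soleus muscles of 5 females aged 6 months, and its RNA was measured on 2 arrays. Per the labels the arrays of a genotype are technical duplicates. The labels name neither the strain nor the disrupted part of Lipe, and MHC genes differ in sequence between mouse strains. With 1 pool per genotype there is no test across animals and no p-value. An SD or a standard error (SE) below measures the spread between 2 arrays, not between animals, and the number of arrays limits the precision.

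Values are linear intensities scaled before deposit, with a trimmed mean of 100.1 on each array. Duplicate arrays correlated at r = 0.987 and 0.988 over 6211 probe sets, and arrays of different genotypes at 0.983 to 0.986, with probe sets not independent of each other. As a check of the labels, the Lipe intensity was 71.4 and 70.2 in wildtype and 16.2 and 19.4 in HSL-null. The 8 muscle fibre markers of the soleus, such as Acta1 and the slow troponin gene Tnnt1, were all above the filter described next, and their summed intensity was 34641 to 36553 in wildtype and 36069 to 37401 in HSL-null. For the beta-actin control, the 3′ signal over the 5′ signal, which tracks RNA quality, was 0.688 and 0.706 in wildtype and 0.816 and 0.823 in HSL-null. For Gapdh it was 0.955 and 0.927 in wildtype and 0.922 and 0.912 in HSL-null. The part of RNA quality in the differences below was not tested.

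MHC class I molecules display peptides made in the cytosol on nearly every nucleated cell. The polymorphic heavy chains encoded by H2-K1 and H2-D1 (class Ia) pair with beta-2 microglobulin (B2m) and receive peptides that the Tap1 and Tap2 transporter brings into the endoplasmic reticulum, with tapasin (Tapbp) as the bridge. Class Ib genes of the Q, T and M regions encode less polymorphic relatives, many with restricted expression. Class II molecules, made of an alpha and a beta chain such as H2-Aa with H2-Ab1, display peptides from endosomes and are found mainly on dendritic cells, macrophages and B cells. The invariant chain (Cd74) escorts class II chains to endosomes, H2-DM loads their peptides, H2-DO restrains H2-DM, and Ciita is the master activator of class II transcription. Healthy muscle fibres are known for low class I and little class II.

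Class I and class II genes are known to be switched on as groups through short promoter elements, and letters of such elements were searched for. The 250 bases before the start of 5 genes are shown, from RefSeq promoters on GRCm38.p6, for the light chain, both class Ia heavy chains and a class II alpha and beta chain. Capitals mark matches, on either strand, to CCAAT (the core of the Y box), AGCAAC (a core of the class II X box), GGGGAT and CCCC with 1 base between (a kappa B site), and GAAA repeated with 2 bases between (the core of an interferon-stimulated response element). No printed matches overlap.
B2m, chr2:122147437-122147686, plus strand: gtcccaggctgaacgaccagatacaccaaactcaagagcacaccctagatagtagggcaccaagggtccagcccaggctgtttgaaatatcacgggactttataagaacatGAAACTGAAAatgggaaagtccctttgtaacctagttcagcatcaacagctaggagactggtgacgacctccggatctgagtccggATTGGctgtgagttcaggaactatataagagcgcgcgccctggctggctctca
H2-K1, chr17:34000348-34000597, minus strand: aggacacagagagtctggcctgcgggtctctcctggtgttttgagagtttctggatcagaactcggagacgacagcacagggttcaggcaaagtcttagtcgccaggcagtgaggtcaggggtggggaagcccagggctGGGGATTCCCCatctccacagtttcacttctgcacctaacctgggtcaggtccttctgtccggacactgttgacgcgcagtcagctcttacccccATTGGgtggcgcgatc
H2-D1, chr17:35262844-35263093, plus strand: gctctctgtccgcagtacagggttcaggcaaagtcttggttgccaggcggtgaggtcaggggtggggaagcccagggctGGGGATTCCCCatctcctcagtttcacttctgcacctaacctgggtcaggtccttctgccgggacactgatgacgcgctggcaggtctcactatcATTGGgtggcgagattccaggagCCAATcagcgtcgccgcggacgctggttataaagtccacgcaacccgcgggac
H2-Aa, chr17:34287824-34288073, minus strand: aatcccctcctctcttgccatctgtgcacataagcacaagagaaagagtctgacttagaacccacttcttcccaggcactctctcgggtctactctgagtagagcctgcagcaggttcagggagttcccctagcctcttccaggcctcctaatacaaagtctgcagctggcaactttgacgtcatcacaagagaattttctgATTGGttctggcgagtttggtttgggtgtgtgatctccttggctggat
H2-Eb1, chr17:34305617-34305866, plus strand: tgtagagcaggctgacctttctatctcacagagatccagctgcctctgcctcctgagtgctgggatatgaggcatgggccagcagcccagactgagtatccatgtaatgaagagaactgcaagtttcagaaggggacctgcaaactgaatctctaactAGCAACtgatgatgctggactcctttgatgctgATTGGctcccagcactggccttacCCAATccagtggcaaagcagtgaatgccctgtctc
The same kappa B letters stood in the H2-K1 window, 111 to 101 bases before the start, and in the H2-D1 window, 171 to 161 bases before it. Of all 32851 windows of this length, 0.0974% held that motif. By class it was found in 3 of 3 class Ia windows, 0 of 8 of class Ib and 0 of 9 of class II. The light chain and loading genes had it in 0 of 3. The interferon motif stood in the B2m window, 139 to 130 bases before the start, and in 2.98% of all windows. B2m was 1 of 3 light chain and loading windows. The motif was found in 0 of 3 class Ia, 0 of 8 class Ib and 0 of 9 class II windows. The X box letters stood in the H2-Eb1 window, 92 to 87 bases before the start, upstream of a CCAAT match on the other strand at 59 to 55. They were found in 4 of 9 class II windows (H2-Eb1, H2-Eb2, H2-Oa and H2-Ob), 0 of 3 class Ia windows and 12.2% of all windows. The printed H2-Aa window had no X box match. CCAAT was found in 8 of 9 class II windows, 3 of 3 of class Ia, 7 of 8 of class Ib and 3 of 3 of the light chain and loading genes, and in 33.8% of all windows. Of the 35 member genes, 21 had a window in the promoter table, 24 windows in all. A match describes letters only, and nothing in the array data bears on factor binding.

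Of the 48 member probe sets, 26 (22 genes) passed the filter on low values, a mean intensity of 27.6 or more (the median of all probe sets), and 22 lay under it. The class Ia genes had 5 of 9 probe sets above the filter, class Ib 9 of 16, class II 5 of 14 and the light chain and peptide loading genes 6 of 7. The remaining gene, H2-Ke6, lies in the MHC but encodes a hydroxysteroid dehydrogenase, and 1 of its 2 probe sets was above the filter. Many MHC probe sets can share probes with related genes. Of the 48, 26 had a plain ID, and the suffix was _f (a sequence family) in 14, _g (a group of related transcripts) in 3, _s in 2, _i in 2 and _r in 1. A value of an _f or _g probe set therefore cannot be credited to a single MHC gene, and values with the other suffixes are read with the same caution.

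Separated is used below for a probe set whose 2 HSL-null arrays each differed from each wildtype array in one direction and by 1.5-fold or more. By this rule 1 of 26 members was separated, higher in HSL-null, against 0.451% of all 6211 probe sets above the filter in either direction. It was a probe set of the class Ib gene H2-M10.1, which passed the filter through its HSL-null level alone, so that nothing is read from this share. By the looser rule that the 2 arrays of one genotype both lay above the 2 of the other, 6 members were lower in HSL-null and 4 higher. Of all probe sets above the filter, 21.1% were lower and 19.5% higher by that rule, so that the members' shares of 23.1% and 15.4% lay near the background. These counts include H2-M10.1 (higher) and H2-Q10 (lower), which passed the filter through 1 genotype alone. In all, 3 members and 163 of the 6211 probe sets did so. With 1 array left out, which leaves 2 pairs to compare, 8 to 13 members were lower and 5 to 8 higher. The shares of all probe sets rose in the same way, to between 35.3% and 36.5% lower and between 32.9% and 35.5% higher. The median log2 difference (HSL-null minus wildtype) of the 26 was 0.0050, and that of all 6211 was -0.0022.

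**Figure D1:**
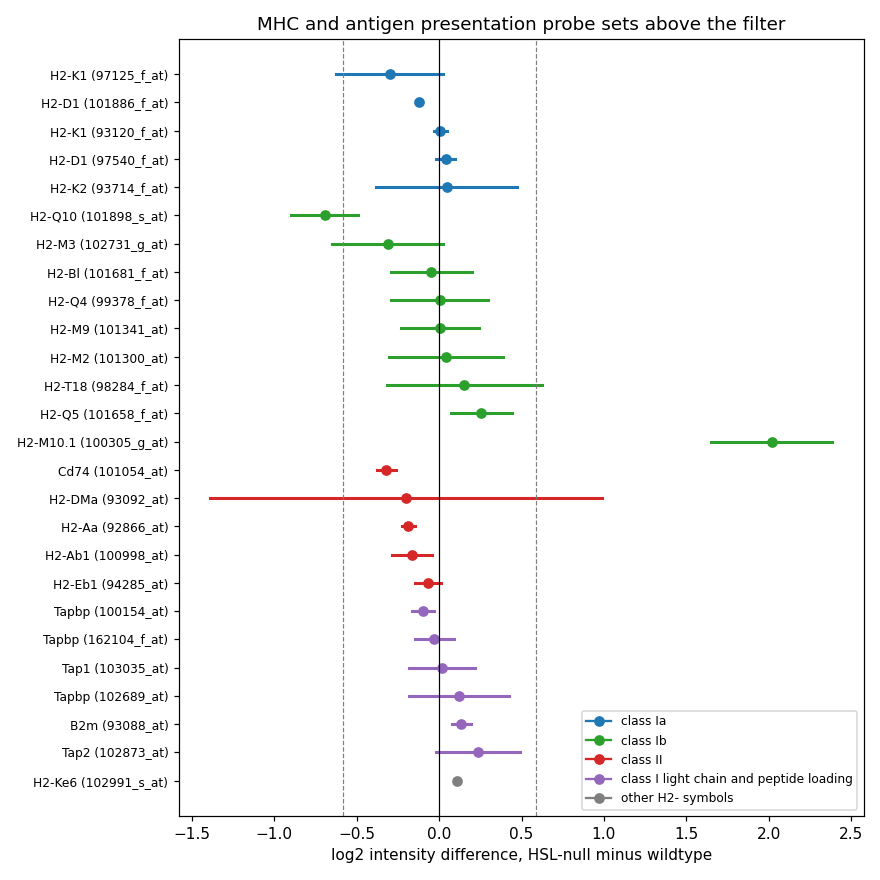
Log2 intensity difference, HSL-null minus wildtype, of the 26 member probe sets above the filter, coloured by class. Points are differences of the 2-array means, bars run from the lowest to the highest of the 4 array pairs, and dashed lines mark 1.5-fold. The H2-M10.1 probe set 100305_g_at lies at 2.02, and all 5 class II points lie below 0. H2-M10.1 passed the filter through its HSL-null level alone, and the class II gene H2-DMa through its wildtype level alone.

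The class II probe sets above the filter lay below 0 in HSL-null by small amounts. Among those of them whose arrays did not overlap, the invariant chain differed most. The dimmer class II probe sets, given further below, lay in both directions. The difference was -0.32 for Cd74, -0.19 for H2-Aa and -0.17 for H2-Ab1, each lower on both HSL-null arrays. H2-Eb1 at -0.068 and H2-DMa at -0.20 overlapped between genotypes. Thus 3 of 5 class II probe sets above the filter were non-overlapping and lower, beside 21.1% of all probe sets, 0 were higher and 0 were separated. All 5 lay below 0, as did 50.5% of all probe sets. Of these 5, H2-DMa passed the filter through its wildtype level alone, with a mean of 32.2 against 26.55 in HSL-null. Its direction is therefore not read, and nothing is read from the count of 5 below 0.

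The Cd74 intensity was 208 and 221 in wildtype and 171 and 174 in HSL-null. Both HSL-null values lay below both wildtype values. Means were 215 ± 9.05 and 172 ± 2.05 (SD, n = 2 arrays), so that HSL-null was 1.25-fold lower, a log2 difference of -0.32 ± 0.045 (SE of the duplicates, as for every log2 difference below). The nearest pair of arrays differed by -0.26, short of the 1.5-fold rule.

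The alpha and beta chains of H2-A were measured by 1 plain probe set each. H2-Aa, the alpha chain, measured 87.0 and 83.7 in wildtype and 75.6 and 74.4 in HSL-null, 1.14-fold lower (-0.19 ± 0.030). H2-Ab1, the beta chain, measured 50.8 and 57.0 in wildtype and 49.2 and 46.8 in HSL-null, 1.12-fold lower (-0.17 ± 0.091). The H2-Aa genotypes stood further apart than their duplicates did, whereas the closest H2-Ab1 arrays, wildtype 1 and HSL-null 1, differed by -0.046. H2-Eb1, the beta chain of H2-E, measured 126 and 120.1 in wildtype and 121 and 114 in HSL-null (-0.068 ± 0.057). Its wildtype array 2 lay below HSL-null array 1, so the genotypes overlapped. The partner chain gene H2-Ea was under the floor of 5.70 on all 4 arrays, with intensities of 2.4 and 1.3 in wildtype and 1.1 and 1.5 in HSL-null.

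The H2-DM and H2-DO genes, which edit class II peptides, gave dim and variable values. The H2-DMa probe set above the filter measured 17.8 and 46.6 in wildtype and 17.8 and 35.3 in HSL-null (-0.20 ± 0.85). Array 2 of each genotype was the higher one, and the duplicates differed by more than the genotypes. The H2-DMb1 probe set 98035_g_at, under the filter, measured 24.7 and 19.2 in wildtype and 9.10 and 11.6 in HSL-null (-1.08 ± 0.25). The smallest of its 4 pairs was 1.66-fold lower, and 0.66% of all probe sets under the filter were lower by at least 1.5-fold in every pair. Its companion 98034_at, annotated to both H2-DMb1 and H2-DMb2, lay under the floor on all 4 arrays.

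The 2 chains of H2-DO, both under the filter, lay in opposite directions. H2-Oa measured 18.2 and 17.6 in wildtype and 29.1 and 21.7 in HSL-null (0.49 ± 0.21). H2-Ob measured 9.60 and 10.9 in wildtype and 7.60 and 1.90 in HSL-null, the last under the floor. Neither overlapped between genotypes, as was seen for 12% (higher) and 7.04% (lower) of probe sets under the filter. Ciita, also under the filter, measured 27.3 and 24.9 in wildtype and 21.5 and 27.9 in HSL-null (-0.090 ± 0.20), and its genotypes overlapped. The other class II probe sets were those of H2-Eb2, under the floor on all arrays, the second of H2-DMa, H2-DMb2 and the pseudogene H2-Pa, with means over the 4 arrays from 2.9 to 11.6.

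With H2-DMa included, which was kept through its wildtype level alone, the class II median was -0.19 over 5 probe sets. It ran from -0.28 to -0.055 over the 4 array pairs. It stayed below 0 under each alternative scaling, floor, filter and left-out array, and was closest to 0, at -0.079, when the 9 dim class II probe sets were counted too. In pooled muscle, fewer class II cells and less class II RNA per cell cannot be told apart. Whether the pools differed in class II RNA for reasons other than genotype was not tested. The part of RNA quality, or of strain differences in MHC sequence, in this median was not tested either.

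**Figure D2:**
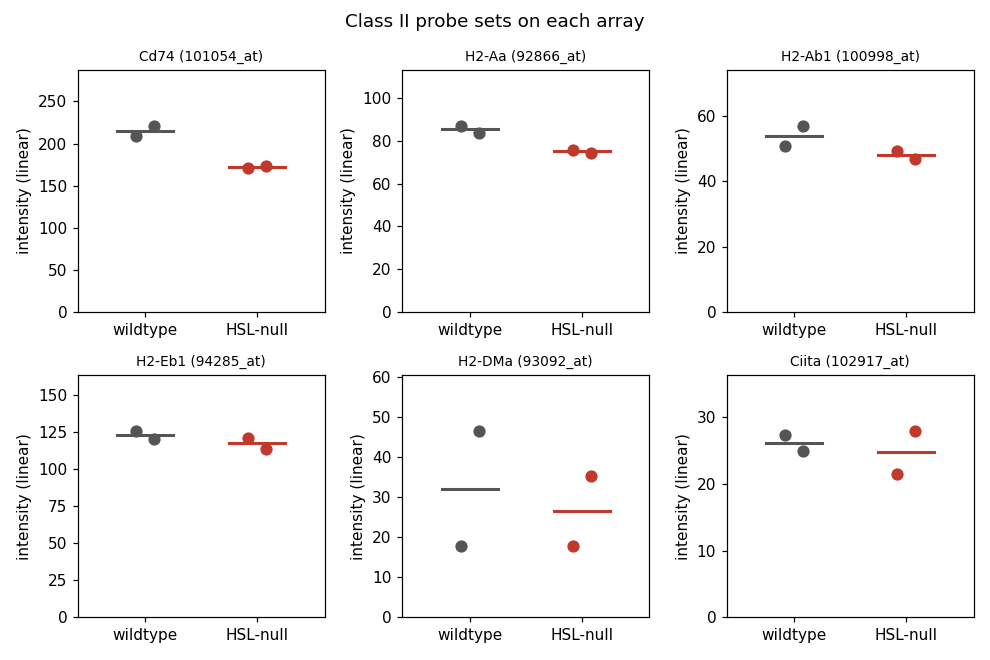
Linear intensity of 6 class II probe sets on each array (points) with the mean of the 2 arrays (lines), wildtype in grey and HSL-null in red. The HSL-null points of Cd74, H2-Aa and H2-Ab1 lie below both wildtype points, and those of H2-Eb1, H2-DMa and Ciita overlap with them.

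Markers of the cells that carry class II were set beside these values. In this and the next 2 paragraphs C1qa, Cd79a, Cd4, Gzmb, Cd3e, Cd8a, Cd8b1, Coro1a, Cpa3, Pecam1 and Vwf are named after their values were seen. Counts without overlap stand beside 19.5% higher and 21.1% lower among all probe sets above the filter. Of 8 macrophage and monocyte markers above the filter, out of 13 on the array, 1 was non-overlapping and higher and 0 were lower. Their summed intensity over all 13 was 748 to 775 in wildtype and 756 to 757 in HSL-null. C1qa, a complement subunit made by macrophages, was the higher one, at 92.0 and 72.7 in wildtype and 102 and 107 in HSL-null. The markers with the highest mean in that list, C1qc (0.036 ± 0.21) and Lyz2 (-0.075 ± 0.059), overlapped between genotypes. The summed macrophage intensity of both HSL-null arrays lay inside the wildtype range.

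Dendritic cell and B cell markers were mostly dim. Of 7 dendritic cell markers 3 were above the filter, with Flt3, a receptor of dendritic cell progenitors, higher (0.15 ± 0.057) and Ccl22 overlapping (-0.34 ± 0.47). The summed intensity of the 7 was 173 to 206 in wildtype and 181 to 193 in HSL-null. Of 7 B cell markers 2 were above the filter, the immunoglobulin heavy chain Ighm (0.26 ± 0.14, non-overlapping) and Ms4a1 (-0.085 ± 0.27), and the sums were 153 to 156 in wildtype and 150.0 to 164 in HSL-null. Cd79a, a part of the B cell receptor, measured 22.3 and 20.5 in wildtype and 18.0 and 17.2 in HSL-null. T cell and NK cell markers were above the filter for 1 of 11 (Thy1, which other cells also make, 0.45 ± 0.043). Under the filter, Cd4 measured 22.5 and 20.1 in wildtype and 32.1 and 30.4 in HSL-null. Gzmb, also under it, measured 5.3 and 9.2 in wildtype and 18.2 and 12.3 in HSL-null. The rest of the 11 markers overlapped or lay under the floor. Of the 11, 5 lay under the floor on all 4 arrays, among them the T cell genes Cd3e, Cd8a and Cd8b1. The sums over the 11 were 83.4 to 86.7 in wildtype and 114 to 122 in HSL-null.

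The markers of mast cells and white adipocytes had lower sums in HSL-null. All 3 neutrophil and mast cell markers above the filter, the mast cell proteases Tpsb2, Cma1 and Cpa3, were non-overlapping and lower (-0.24, -0.15 and -0.12), and the sums over the 8 on the array were 236 to 237 in wildtype and 203 to 213 in HSL-null. The 4 white adipocyte markers above the filter lay below 0, 3 of them non-overlapping and lower. The adiponectin gene Adipoq was the single separated one, at 150.2 and 157 in wildtype and 73.5 and 74.1 in HSL-null (-1.06 ± 0.033), and it made up much of the difference in the sums, which were 530.5 to 538 in wildtype and 396 to 398 in HSL-null over the 5 on the array. Of 9 endothelial markers, 8 lay below 0, and 2 were non-overlapping and lower (Pecam1 at -0.28 and Vwf at -0.14), 22.2% and so near the share of all probe sets, and 1 higher, with sums of 1115 to 1165 in wildtype and 1086 to 1100.1 in HSL-null. Of 6 pan-leukocyte markers 3 were above the filter, and they had no common direction. Laptm5, a lysosomal membrane protein of leukocytes, was lower (-0.34 ± 0.20), Coro1a higher (0.21 ± 0.14) and Rac2 overlapping (0.015 ± 0.11), and the sums over the 6 were 184 to 213 in wildtype and 191 to 206 in HSL-null. The fibroblast markers went the other way, with 6 of 7 non-overlapping and higher. The part of these cell types in the class II values was not tested.

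Class Ia heavy chains gave no common direction. The 5 probe sets above the filter had a median of 0.0078, with 3 above 0, 2 below and 0 separated. Non-overlapping and lower was 1 (20%), near the 21.1% of all probe sets, and 0 were higher, beside 19.5%. Without wildtype array 1 the median was -0.13. Probe sets of the same gene disagreed.

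H2-K1 was measured by 3 probe sets. The first, 93120_f_at, measured 502 and 525 in wildtype and 519 and 514 in HSL-null, 514 ± 16.2 against 516 ± 3.82 (SD, n = 2 arrays), and both HSL-null values lay between the wildtype ones (0.0078 ± 0.033). The second, 97125_f_at, measured 74.1 and 83.8 in wildtype and 54.4 and 75.4 in HSL-null (-0.30 ± 0.25), where HSL-null array 1 was low and array 2 overlapped with wildtype. The third, 97700_at, is the single plain one and lay under the filter at 21.3 and 26.2 in wildtype and 24.3 and 19.0 in HSL-null.

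H2-D1 also had 3 probe sets, all of the _f kind. On 101886_f_at it measured 282 and 285 in wildtype and 261 and 259.5 in HSL-null, 1.09-fold lower (-0.12 ± 0.0089), a small difference beside very close duplicates. On 97540_f_at it measured 405 and 390.4 in wildtype and 418 and 400.1 in HSL-null (0.040 ± 0.042), and the genotypes overlapped. The third, 97541_f_at, lay under the filter and was lower without overlap by a narrow margin, with 29.2 and 25.6 in wildtype and 25.4 and 24.5 in HSL-null. So 2 of the 3 H2-D1 probe sets were lower and the third was not.

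H2-K2, a relative of H2-K1 grouped here with class Ia by its symbol, measured 211 and 324 in wildtype and 293 and 249 in HSL-null (0.045 ± 0.33). Its wildtype duplicates enclosed both HSL-null values. The probe sets of H2-D4 were under the filter, 1 of them under the floor on all 4 arrays and the other between 7.10 and 28.3.

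The light chain was slightly higher in HSL-null. B2m measured 955 and 1019.5 in wildtype and 1075 and 1092 in HSL-null, 987 ± 45.8 against 1084 ± 12.0 (SD, n = 2 arrays), 1.10-fold higher (0.14 ± 0.049). Both HSL-null values lay above both wildtype ones, as was the case for 19.5% of all probe sets.

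Peptide loading genes did not share a direction. Tap1 measured 29.0 and 36.1 in wildtype and 31.8 and 33.7 in HSL-null (0.017 ± 0.16), with the HSL-null arrays inside the wildtype range. Tap2 measured 28.8 and 28.4 in wildtype and 28.4 and 39.9 in HSL-null (0.24 ± 0.25), which rested on HSL-null array 2. Both Tap genes lay close to the filter. Tapbp, with 3 probe sets above the filter, was non-overlapping on 100154_at alone, at 143 and 136 in wildtype and 127 and 133 in HSL-null (-0.098 ± 0.047). Its other probe sets differed by 0.12 ± 0.27 and -0.030 ± 0.098 and overlapped. The median of the 6 light chain and loading probe sets was 0.068, and -0.075 without HSL-null array 2. The second Tap1 probe set, 162278_r_at, lay under the filter (-0.32 ± 0.31).

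The class Ib genes held both the largest higher and the largest lower difference among the 26 members above the filter, on the dim side of the array. Of 9 probe sets above the filter 2 were non-overlapping and higher (H2-M10.1 and H2-Q5) and 1 lower (H2-Q10). These shares, 22.2% and 11.1%, stand beside 19.5% and 21.1% of all probe sets. Both H2-M10.1 and H2-Q10 passed the filter through 1 genotype alone, so that nothing is read from these shares. The class median was 0.0063, and its sign depended on single arrays, at 0.18 when wildtype array 1 was left out, -0.17 when wildtype array 2 was, and -0.047 when HSL-null array 2 was.

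H2-M10.1 belongs to the M10 family, known from vomeronasal sensory neurons, where its products accompany V2R receptors. Its probe set 100305_g_at measured 14.2 and 19.0 in wildtype and 74.2 and 59.6 in HSL-null, 16.6 ± 3.39 against 66.9 ± 10.3 (SD, n = 2 arrays), 4.05-fold higher (2.02 ± 0.26). The smallest of its 4 pairs was 3.14-fold. The wildtype mean lies under the filter, so the probe set was kept through its HSL-null level. Of all probe sets above the filter, 0.225% were separated and higher.

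The other probe sets of H2-M10.1 did not show this. The plain 100304_at, whose ID number precedes that of the _g probe set, measured 9.90 and 18.6 in wildtype and 7.80 and 3.80 in HSL-null, lower without overlap and in the opposite direction (-1.03 ± 0.51, with the last value raised to the floor). The other plain one, 100303_at, measured 11.0 and 6.80 in wildtype and 8.0 and 14.4 in HSL-null and overlapped (0.31 ± 0.55). Both lay under the filter. The higher signal of HSL-null is thus confined, among the 3 probe sets of this gene, to the one whose suffix marks shared sequence.

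H2-Q10, known as a secreted class I molecule of the liver, was lower on a probe set of the _s kind. It measured 45.4 and 35.9 in wildtype and 25.5 and 24.4 in HSL-null, 40.6 ± 6.72 against 24.9 ± 0.778 (SD, n = 2 arrays), 1.62-fold lower (-0.69 ± 0.17). The nearest pair differed by 1.41-fold, so it lay just outside the separation rule, and without wildtype array 2 it was inside. Its HSL-null mean lies under the filter, and it was kept through its wildtype level.

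**Figure D3:**
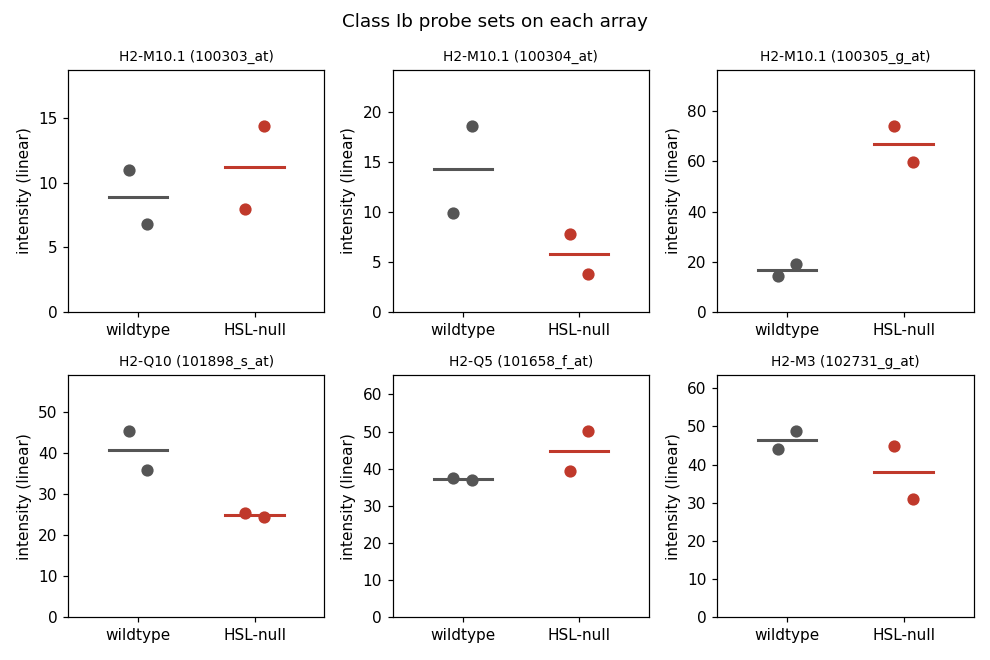
Linear intensity of 6 class Ib probe sets on each array (points) with the mean of the 2 arrays (lines), wildtype in grey and HSL-null in red. Among the 3 probe sets of H2-M10.1, the HSL-null points are higher on 100305_g_at and lower on 100304_at, and they overlap with wildtype on 100303_at.

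The remaining class Ib members above the filter differed little for the spread of their duplicates. H2-Q5 measured 37.6 and 37.0 in wildtype and 39.5 and 50.2 in HSL-null (0.26 ± 0.17), non-overlapping but led by HSL-null array 2. H2-M3, which presents N-formylated peptides of bacteria, measured 44.1 and 48.8 in wildtype and 44.9 and 31.1 in HSL-null (-0.31 ± 0.27), with the low value on HSL-null array 2. H2-T18 measured 150 and 83.4 in wildtype and 128 and 120 in HSL-null (0.15 ± 0.42). Its wildtype duplicates enclosed both HSL-null values, and those of H2-Q4 did so too, at 151 and 118 against 145 and 123 (0.0037 ± 0.21). H2-Bl (-0.048 ± 0.17), H2-M2 (0.041 ± 0.27) and H2-M9 (0.0063 ± 0.19) also overlapped. Cd1d1, the lipid-presenting CD1 molecule counted here with class Ib, lay under the filter at 14.9 and 17.0 in wildtype and 16.1 and 13.8 in HSL-null.

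Of the 22 members under the filter in all classes, with means from 1.58 to 26.2, 4 were under the floor on all 4 arrays and 5 on some. Lower without overlap were 5, beside 7.04% of all probe sets under the filter, namely the probe sets of H2-D1, H2-DMb1, H2-M10.1 and H2-Ob given above and that of H2-Q1 (-0.30 ± 0.11). Higher without overlap was 1, H2-Oa, beside 12% of all. The enzyme gene H2-Ke6, a neighbour rather than a presenting molecule, measured 180 and 182 in wildtype and 195 and 197 in HSL-null (0.11 ± 0.0093) on its probe set above the filter and overlapped on the other.

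Genes that act with these molecules showed 0 separated members in any of 5 lists with members above the filter. In the immunoproteasome and PA28 list 4 of 5 genes on the array were above it, with 1 higher and 1 lower without overlap, near the shares of all probe sets. Psme1, a subunit of the interferon-induced PA28 activator, measured 226 and 225 in wildtype and 263 and 249.7 in HSL-null (0.18 ± 0.038). Psme3, the nuclear relative of that activator, measured 198 and 196 in wildtype and 170.1 and 170.3 in HSL-null (-0.21 ± 0.011). In the list of class I folding and peptide trimming, 3 of 4 genes were above the filter and 0 were non-overlapping, with the chaperone Hspa5 at 0.11 ± 0.19 and the disulfide isomerase Pdia3 at 0.14 ± 0.19.

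Class II transcription and endosomal processing genes lay above 0 in 6 of 8, with a median of 0.12. Higher without overlap were 4 of 8, beside 19.5% of all probe sets, among them the cysteine protease Ctsb (0.079 ± 0.032), and lower was 1, beside 21.1%, the aspartic protease Ctsd (-0.14 ± 0.052). The others of the 4, named after their values were seen, were Rfxank, a subunit of the RFX factor that binds the X box (0.21 ± 0.060), Nfyc, a subunit of the CCAAT-binding NF-Y (0.17 ± 0.066), and the asparaginyl protease Lgmn (0.20 ± 0.10).

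Interferon-responsive genes were above the filter for 13 of 27, with a median of 0.097, and 2 were higher and 2 lower without overlap (15.4% each, under the shares of all probe sets). The genes with the highest level in that list, Ifitm3 (-0.048 ± 0.055) and Iigp1 (0.29 ± 0.39), overlapped. The 4 non-overlapping ones, named after their values were seen, were the guanylate-binding protein genes Gbp2 (0.44 ± 0.053) and Gbp3 (0.21 ± 0.095), higher, and Ifi35 (-0.28 ± 0.15) and Ifi27l2a (-0.48 ± 0.18), lower. Among 6 interferon ligands and receptors above the filter 1 was non-overlapping and lower, the kinase Jak1 (-0.064 ± 0.021). This share of 16.7% lay under the 21.1% of all probe sets. The receptor chain Ifngr2 overlapped (-0.050 ± 0.039). All 5 costimulation genes on the array lay under the filter, with sums of 44.6 to 45.1 in wildtype and 54.1 to 59.7 in HSL-null. These 5 are named after their values were seen. Cd86 measured 5.9 and 1.7 in wildtype, the second under the floor, and 12.3 and 11.7 in HSL-null. Cd80 was also higher without overlap, Icam1 was lower, and Cd40 and Cd48 overlapped. Of all probe sets under the filter, 12% were higher and 7.04% lower without overlap.

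**Figure D4:**
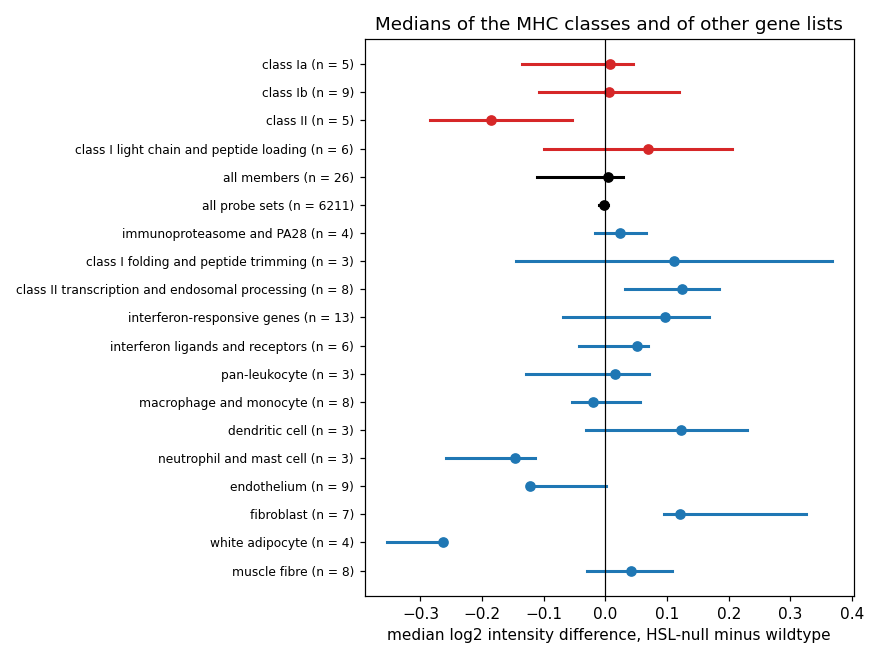
Median log2 intensity difference, HSL-null minus wildtype, of the MHC classes (red), of all members and all probe sets above the filter (black), and of the other gene lists that had 3 or more genes above the filter (blue, 1 probe set per gene). Bars run from the lowest to the highest median over the 4 array pairs. The class II bar, from -0.28 to -0.055, lies below 0, and the bars of class Ia, class Ib and peptide loading span 0. Bars of the white adipocyte and the neutrophil and mast cell markers also lie below 0. Those of the fibroblast markers and of class II transcription and endosomal processing lie above 0.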

How the data were processed

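The deposited table holds linear array intensities for 12488 probe sets on 4 arrays. Software, background correction and scaling are not given in the sources used. The 66 control probe sets were left out. Values under 5.70, the table's 25th percentile, were raised to it before log2, and probe sets with a mean at or above the median (27.6) were kept, 6211 in all. Symbols came from the platform annotation, and all 48 member probe sets matched RefSeq (GRCm38.p6) by gene ID. All members were described, and in each other list the genes named are the separated ones or, failing any, the 2 of highest mean, except where the text says otherwise. A gene in a list was represented by its probe set with the highest mean. The members and lists were chosen with earlier results of these data known. The script for separation was tested on simulated data. Alternatives were median centring, quantile normalization and cyclic loess (limma 3.58.1, R 4.3.3), other floors, filters and thresholds, each array left out, and differences within same-numbered arrays. Python 3.11.15 with pandas 2.3.3 and numpy 2.4.6 was used.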

Additional observations from a re-analysis of the deposited data

How the results depend on the processing

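The separated member was H2-M10.1 alone under every scaling and floor tried, and at a 2-fold threshold. H2-M10.1 was kept through its HSL-null level, so that nothing is read from its recurrence. Of all 6211 probe sets, 28 were separated in the main setting at 1.5-fold, and 14 at 2-fold. There were 2 separated members at a 1.3-fold threshold (H2-Q10 added, kept through its wildtype level), beside 95 of all 6211. With no filter there were 2 (H2-DMb1 added), beside 176 of all 12422. There were 0 with the filter at the 75th percentile, which keeps 11 members and drops H2-M10.1. With 1 array left out there were 1 or 2, beside 81 to 109 of all probe sets above the filter. Members without overlap numbered 4 higher and 6 lower, and 5 higher with median centring (Tap2 added) or quantile normalization (a second H2-D1 probe set added). Among all probe sets, 22.2% and 20.1% were higher in these 2 settings. With no filter 5 of 48 members were higher and 11 lower, beside 15.7% and 14.1% of all. With the filter at the 75th percentile 2 of 11 were higher and 3 lower, beside 19.7% and 24.2%. With 1 array left out, which leaves 2 pairs, 5 to 8 were higher and 8 to 13 lower, at 8 and 13 (wildtype array 1 left out), 7 and 10 (wildtype array 2), 8 and 8 (HSL-null array 1), and 5 and 11 (HSL-null array 2). The shares of all probe sets were then 32.9% to 35.5% higher and 35.3% to 36.5% lower. The class II median was -0.079 with no filter, and it ran from -0.25 to -0.16 with 1 array left out. Over the same settings the median of class Ia ran from -0.13 to 0.015, of class Ib from -0.17 to 0.18, and of the light chain and peptide loading genes from -0.075 to 0.13. Same-numbered arrays of the genotypes did not deviate together (r = -0.086 over 6211 probe sets), and within such pairs, as a replicate block, 1 member was separated, 5 were higher and 9 lower without overlap, while the shares of all probe sets rose to 25.4% higher and 27.0% lower. With 1 pool per genotype, no setting bears on variation between animals.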

Other observations

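Besides the members, 12 probe sets were annotated to several genes that include an MHC or CD1 symbol, and 8 of them lay above the filter. Of these 8, 0 were separated, 0 were higher without overlap and 2 were lower. Among all probe sets above the filter, 0.451% were separated, 19.5% higher and 21.1% lower, so that 2 of 8 lies near the background. The first, 101876_s_at, is shared by H2-T9, H2-T22 and H2-T10, class Ib genes whose products include ligands of gamma-delta T cells. It measured 89.5 and 91.5 in wildtype and 80.7 and 79.8 in HSL-null (-0.17 ± 0.018, SE of duplicates). A different probe set for the same genes, 93865_s_at, overlapped between genotypes, at 67.8 and 78.4 in wildtype and 68.9 and 82.7 in HSL-null. The other lower one, 96976_f_at, is shared by H2-T3, the thymus leukaemia antigen, and H2-T18, and measured 35.5 and 38.5 in wildtype and 29.5 and 26.2 in HSL-null (-0.41 ± 0.10). The probe set annotated to H2-T18 alone overlapped. A probe set shared by H2-T23, which encodes Qa-1, and a pseudogene measured 34.0 and 25.7 in wildtype and 31.1 and 27.6 in HSL-null.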
